A study of Caenorhabditis elegans with 4 samples.

Results

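The left arm of the X chromosome held 472 of the 9630 SWD-3 peaks in the peak list deposited for the whole series. Members were all peaks on X whose midpoint lay at or below base 4428000 of WormBase build WS220, a stretch of 4.428 Mb that is about the outer 25% of the chromosome. The first member lay at chromosome X 11346 to 11563 and the last at 4395533 to 4395694, with a score of 7.16. The next peak beyond the boundary lay at 4444101 to 4444354, with a score of 23.96. The right arm, with 276 peaks at midpoints above 13285000, and the centre between the arms, with 402 peaks, served as the comparison.

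SWD-3 is a WD40-repeat protein related to mammalian WDR5 and yeast Swd3, which are core subunits of the SET1/MLL (COMPASS) complexes that methylate histone H3 at lysine K4, a modification found at active promoters. DPY-30, another subunit of these complexes, also belongs to the worm dosage compensation complex, which lowers transcription from the X chromosomes of hermaphrodites. The left end of X carries the X pairing centre, the site bound by the zinc-finger protein HIM-8 at which homologous X chromosomes pair and begin synapsis in meiosis. In worm embryos the autosomal arms are rich in repeats and lie near the nuclear envelope, and among the parts of X it is the left end that shares this position. The lists carry no annotation of genes, repeats or the pairing centre, so peaks were placed by distance from the chromosome tip.

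The chromatin came from wild-type N2 Caenorhabditis elegans embryos of mixed stages and both sexes, grown at 20 degrees Celsius, so every value is an average over all embryonic cell types. The labels name 2 ChIP libraries, made with a polyclonal rabbit antibody raised against SWD-3, and 2 input DNA libraries. They do not say whether the replicates were separate embryo preparations. A peak list was deposited for each ChIP library, with 2698 peaks for replicate 1 and 4580 for replicate 2, besides the series list. The lists hold no read counts, so depth is unknown, and where a list has no peak, binding was not shown to be absent. Input values were not analysed here, so regions that give peaks whatever the antibody were not separated from SWD-3 binding. No p-values were computed, because each list is a single list and neighbouring peaks share their libraries. Intervals are 95% intervals that cover counting error only and treat peaks as independent.

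Series peaks were denser on the left arm than on the right. The left arm held 107 peaks per Mb and the right arm 62.3, a ratio of 1.71 (exact conditional interval 1.47 to 1.99), while the centre held 45.4. Over 500 kb bins counted inward from the tip, the left arm averaged 107 ± 61.5 peaks per Mb and the right arm 62.1 ± 17.4 (SD, n = 9 bins each). The bins of both arms overlapped, at 42 to 214 per Mb on the left and 34 to 92 on the right. The left arm's excess was uneven. Its first 0.5 Mb held 102 peaks and the stretch at 1.5 to 2 Mb held 107, or together 44.3% of the members and 61.8% of the covered length. The other 7 bins held 76.7 peaks per Mb, 1.23 times the density of the whole right arm. The bins left out were picked for their counts and on the left arm only, so this ratio had to fall below 1.71. The sparsest bin was at 2.5 to 3 Mb, with 21 peaks, and none of them stood in a run of close peaks. In covered length the arms differed more, with 351 kb or 7.92% of the left arm and 153 kb or 3.45% of the right arm under peaks.

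**Figure D1:**
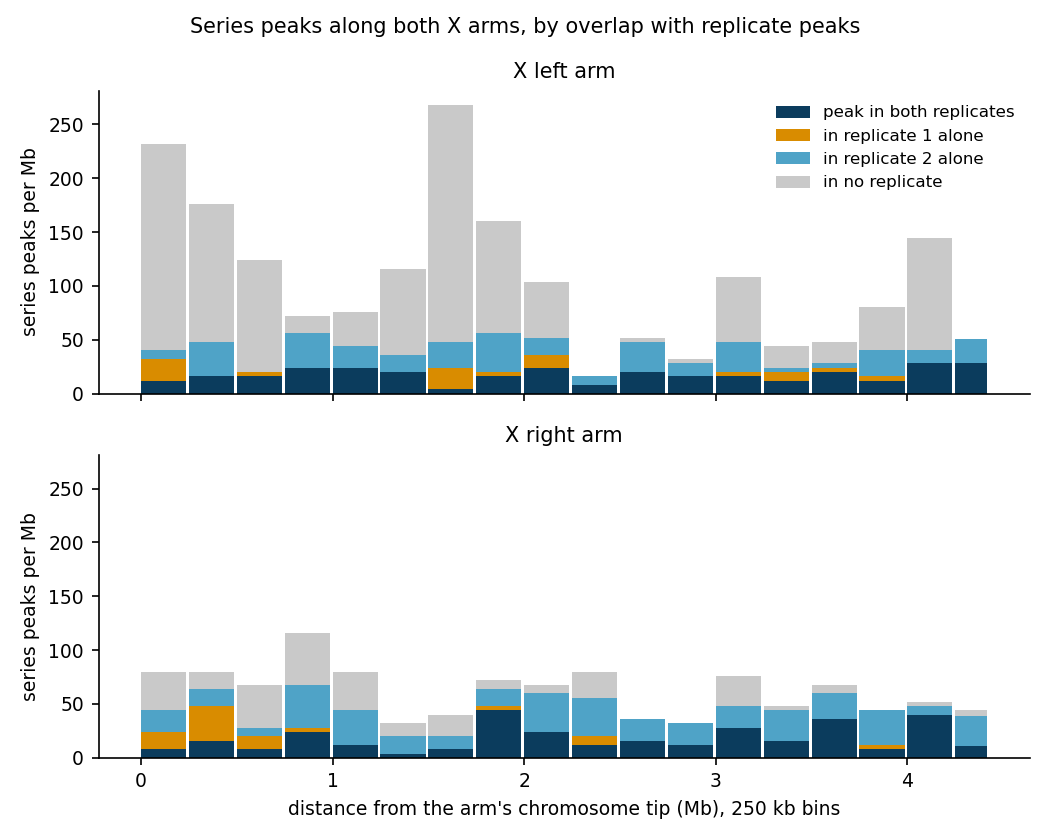
Series peaks per Mb in 250 kb bins against the distance from the chromosome tip in Mb, for the left arm (upper panel) and the right arm (lower panel), with each bar divided by overlap with the peak lists of the replicates. The grey parts, peaks without a replicate peak, reach high at 0 to 0.75, 1.5 to 2 and 4 to 4.25 Mb on the left arm, while the coloured parts stay low on both arms.

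The excess consisted of series peaks that had no counterpart in a replicate list. The series list names MACS v2 as its peak caller and the replicate lists name MACS with no version, while thresholds, control and any pooling are not stated for the series list. The part of how the lists were made in this result was not tested. Of the 472 members, 295 overlapped no replicate peak by even 1 bp (62.5%, Wilson interval 58.0 to 66.8), against 74 of 276 on the right arm (26.8%, 21.9 to 32.3) and 54.7% of the whole list. The difference between the arms was 35.7 percentage points (Newcombe interval 28.6 to 42.2). Per Mb, the left arm held 66.6 such peaks and the right arm 16.7, a ratio of 3.99 (3.08 to 5.22). Members that did overlap a replicate peak numbered 177 on the left and 202 on the right, or 40.0 and 45.6 per Mb, a ratio of 0.876 whose interval of 0.712 to 1.08 includes 1. In 500 kb bins these peaks were spread fairly evenly along the left arm, at 34 to 52 per Mb (40.0 ± 5.87, SD, n = 9 bins). The right arm had 32 to 58 per Mb (45.6 ± 8.70). In 250 kb bins their density varied more, from 16 to 56 per Mb on the left and from 20 to 68 on the right.

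By replicate, 97 members overlapped a replicate 1 peak, 20.6% on the left arm against 36.6% on the right and 18.6% of the whole list. Replicate 2 peaks were met by 157 members, 33.3% on the left arm against 65.9% on the right and 41.9% of the whole list. With replicate 1 as the sole list the arms therefore differed by 16.0 percentage points in the share without a peak, and with replicate 2 as the sole list by 32.7. Peaks in both replicates were met by 77 members (16.3%, interval 13.3 to 19.9), close to the 15.2% of the whole list, and by 81 peaks on the right arm (29.3%, 24.3 to 35.0). In density these classes were near each other, at 17.4 per Mb on the left and 18.3 on the right. Replicate 1 alone was met by 20 peaks on each arm, 4.24% on the left and 7.25% on the right, against 3.40% of the whole list. Replicate 2 alone was met by 80 on the left (16.9%) and 101 on the right (36.6%), against 26.7% of the whole list. On the left arm overlap was nearly one to one. The 157 members that met replicate 2 did so through 150 of its peaks, of which 144 met a single member. The 97 that met replicate 1 did so through 99 peaks. On the right arm, 182 peaks met 167 of replicate 2 and 101 met 94 of replicate 1. A right arm run of 7 peaks, all counted as found in both, met 1 peak of each replicate.

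The share of peaks without a replicate counterpart was higher on the left arm at every level of score. The score is the authors' own value per peak, on a scale that no header names, and it was used here for ranking within a list. Peaks were divided into blocks of 25% by score over the whole series list. In the lowest 25% of scores, 82.9% of the left arm's peaks (136 of 164) and 46.0% of the right arm's (29 of 63) met no replicate peak. In the highest 25% the shares were 35.5% (33 of 93, interval 26.5 to 45.6) on the left and 7.25% (5 of 69, interval 3.13 to 15.9) on the right. Spacing gave the same order. Isolated peaks, at least 1000 bp from both neighbours, lacked a replicate peak in 62 of 192 cases on the left (32.3%, 26.1 to 39.2) and 29 of 166 on the right (17.5%, 12.4 to 24.0). Among peaks in runs, defined as 3 or more consecutive peaks each under 1000 bp from the next, the shares were 87.9% on the left (188 of 214, 82.8 to 91.6) and 47.0% on the right (31 of 66, 35.4 to 58.8).

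**Figure D2:**
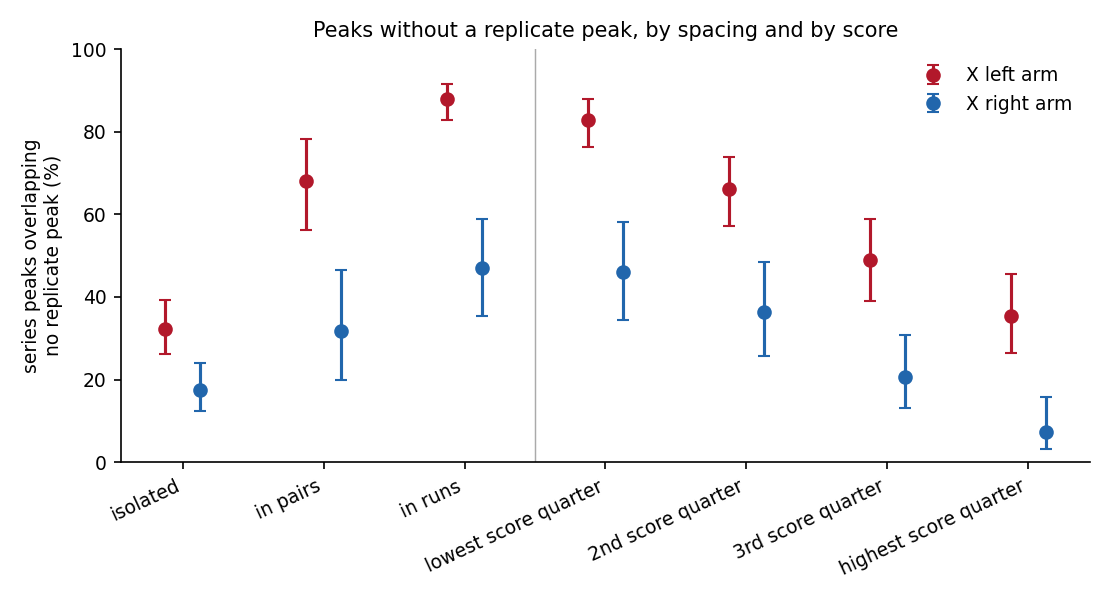
Percent of series peaks that overlap no replicate peak, on the left arm (red) and the right arm (blue), by spacing (left of the grey line) and by blocks of 25% of the scores in the whole series list (right of it). Points are shares and bars 95% Wilson intervals. The left arm lies above the right arm in all 7 classes, from 32.3% against 17.5% for isolated peaks to 87.9% against 47.0% in runs.

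Most members were narrow and low in rank. Their median width was 313 bp (interval 293 to 337), against 307 bp on the right arm, 273 bp in the centre and 319 bp in the whole list, so the medians of the arms were not distinguishable. On the left arm 52 members exceeded 1500 bp (11.0%, interval 8.50 to 14.2), or 11.7 per Mb, against 17 on the right (6.16%, 3.88 to 9.64), or 3.84 per Mb, and 7 in the centre (1.74%). The whole list had 9.28%, within the left arm's interval. Peaks over 1500 bp made up 55.1% of the covered length on the left arm, 40.1% on the right and 51.3% in the whole list. Of them, 24 lay in the first 0.5 Mb and 13 at 1.5 to 2 Mb. By width class, the share without a replicate peak was 72.0% up to 200 bp, 48.9% above 200 and up to 400 bp, 66.7% above 400 and up to 800 bp, and 82.4% above 800 and up to 1500 bp. It was 71.2% (37 of 52) above 1500 bp, where the whole list had a higher share (713 of 894). On the right arm the same 5 classes had 39.7%, 17.5%, 30.6%, 26.7% and 47.1%, in order of width.

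The median member stood at the 38.7th percentile of score in the series list (interval 33.0 to 42.7), against the 52.3rd for the right arm (47.6 to 60.0) and the 50.0th for the centre. The lowest 25% of the list held 164 members, or 34.7%, and the highest 25% held 93, or 19.7%. The top 10% of the list held 41 members (8.69%, interval 6.47 to 11.6) and 20 right arm peaks (7.25%, 4.74 to 10.9). Low rank went with the absence of a replicate peak. Members without one had a median score of 4.93 (27.8th percentile), those found in replicate 2 alone 10.5 (60.5th) and those found in both 11.7 (64.5th). On the right arm, peaks found in both stood at the 73.8th percentile and those without a replicate peak at the 30.6th.

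**Figure D3:**
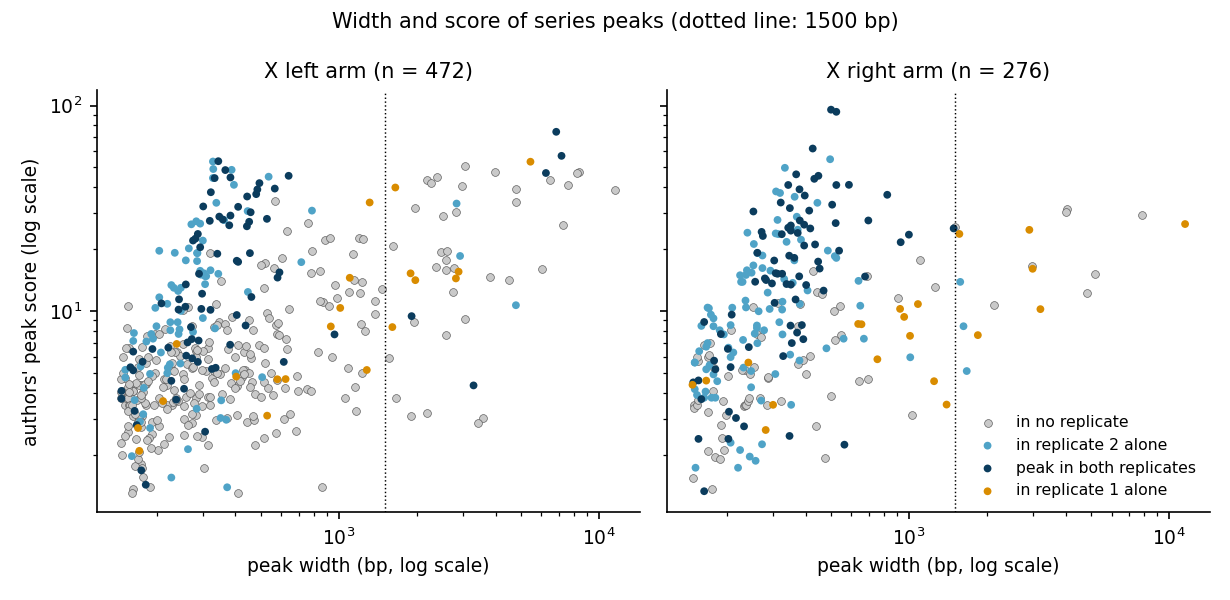
The authors' score of each series peak against its width in bp, both on log scales, for the 472 peaks of the left arm and the 276 of the right arm, coloured by overlap with the replicates. Narrow peaks of high score are mostly blue on both arms. The grey points right of the dotted line at 1500 bp are more numerous on the left arm. There 37 of the 52 wide peaks met no replicate peak, against 8 of 17 on the right and 713 of 894 in the whole list.

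The strongest members were of 2 kinds. In the top 10% of the list, 21 members were up to 1000 bp wide, and 13 of these were found in both replicates and 1 in none. The other 20 were wider, with a median of 4782.5 bp, and 3 were found in both and 13 in none. The corresponding 20 peaks of the right arm were all up to 1000 bp wide, with 14 found in both and 0 in none. Width and score rose together on each arm (Spearman's rho = 0.50 across the 472 members and 0.52 across 276 right arm peaks, as a description over peaks of 1 list).

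The highest score of the arm, 74.49, belonged to a peak of 6845 bp at 225527 to 232371, which ranked 133 of 9630 and met replicate 1 and replicate 2 peaks of rank 406 and 257. Close by, at 235014 to 242186, with narrower members between them, lay the second. It had a score of 56.9 and a width of 7173 bp, and was found in both replicates at ranks 364 and 384. These were 2 of the 5 members over 1500 bp that were found in both replicates. Found here means a shared stretch of at least 1 bp. Each replicate 1 peak they met was at most 1500 bp wide, and so spanned only a part of the member. The third, at 1964830 to 1965173, was isolated, 344 bp wide and scored 53.59, with ranks 580 and 564 in replicates 1 and 2. The highest member found in replicate 2 alone scored 53.4 at 3099829 to 3100156, and the highest in replicate 1 alone scored 53.28 at 57724 to 63172. The highest without a replicate peak lay at 128859 to 131899 and scored 50.8. Narrow peaks at 325599 to 325927, 2809562 to 2809948 and 2089435 to 2089800 scored 49.09, 48.65 and 48.52. The tenth, at 117004 to 125344, scored 47.52 and had no replicate peak. In all, 5 of the 10 were under 400 bp wide, the other 5 exceeded 1500 bp, and those 5 lay within 300 kb of the tip.

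The 10 widest members covered 75.7 kb, or 21.6% of the length under peaks. Of them, 7 met no replicate peak, near the share among all members over 1500 bp (71.2%, 37 of 52). The widest ran from 1765396 to 1776874 (11479 bp, score 38.68). Next came the peaks at 117004 to 125344 (8341 bp) and 133785 to 142032 (8248 bp, score 46.8), both near the tip, then 1658278 to 1665877 (7600 bp, score 41.23) and 3746992 to 3754245 (7254 bp, score 26.36). None of these 5 met a replicate peak. The peaks at 225527 and 235014 described above followed. The remaining 3 began at 172929 (6472 bp), 149551 (6249 bp) and 264825 (6045 bp). Of these, the peak at 149551 was found in both replicates, but only through peaks of rank 2383 of 2698 and 4452 of 4580. The latter, in replicate 2, was 284 bp wide.

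Members stood close together. The median gap to the next peak was 1435 bp on the left arm, against 7679 bp on the right and 10378 bp in the centre, and 44.2% of the left arm's 471 gaps were under 1000 bp, against 26.2% of 275 and 20.4% of 401. The upper end differed less, with 90th percentiles of 25744 bp on the left and 41114 bp on the right. The longest stretch without a member ran from 2885649 to 2996893 (111 kb), where the replicates listed 2 and 4 peaks. The longest gap of the right arm was 113576 bp.

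**Figure D4:**
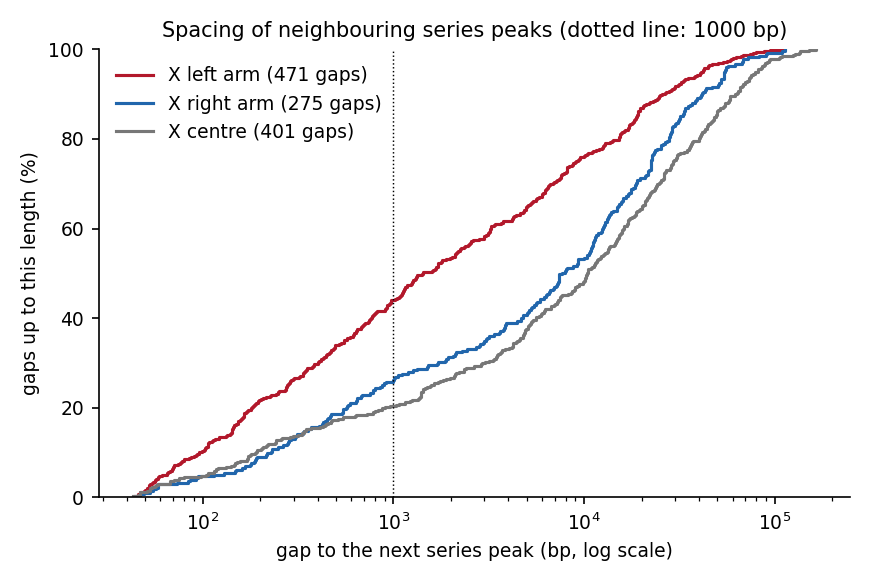
Cumulative percent of gaps between neighbouring series peaks against gap length in bp (log scale), for the left arm (red), right arm (blue) and centre (grey) of X. At the dotted line of 1000 bp the left arm has reached 44.2%, the right arm 26.2% and the centre 20.4% of their gaps.

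Runs took in 214 members, 45.3% (interval 40.9 to 49.8), in 39 runs, against 66 right arm peaks (23.9%, 19.3 to 29.3) in 16 runs. A further 66 members stood in pairs and 192 were isolated. Runs held 205 kb, or 58.6% of the length under peaks on the left arm, and 53.9 kb or 35.3% on the right. Outside runs the arms were closer, with 258 peaks on the left and 210 on the right, a density ratio of 1.23 (1.02 to 1.48). Left arm runs were also larger, with a median of 5 peaks and 5070 bp against 3 peaks and 3122.5 bp on the right, and 20 of 39 held 5 or more peaks against 4 of 16. Of the 39 left arm runs, 27 spanned no peak of either replicate, 7 spanned peaks of both, 4 of replicate 1 alone and 1 of replicate 2 alone. On the right arm 8 of 16 spanned none. Runs within the first 0.5 Mb numbered 11, and 12 lay within 1.5 to 2 Mb.

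The run with the most peaks lay near the inner end of the arm, at 4031591 to 4056510, and packed 23 peaks into 24.9 kb. Peaks covered 79.9% of that span, their scores ran from 1.3 to 7.64, and none met a replicate peak. It was thus a stretch of weak, nearly continuous calls, with a median gap of 263 bp. The longest run, at 115619 to 142032, was of the opposite kind. Its 9 peaks covered 96.1% of 26.4 kb, were up to 8341 bp wide and scored up to 50.8. Runs of 11 peaks lay at 1655577 to 1674038 and 1760782 to 1781373, spanning 18.5 and 20.6 kb with highest scores of 41.78 and 40.5. A run of 9 peaks at 578925 to 584982 was compact, at 6.06 kb, and scored up to 11.15. No replicate peak fell in any of these 5 runs. The fifth longest, at 51546 to 66078, held 8 peaks in 14.5 kb, of which 3 met replicate 1 peaks and 0 met replicate 2.

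Replicate 2 had strong wide peaks close to 3 of these runs. Its highest peak on the arm, at 109130 to 114342 (5213 bp, rank 4 of 4580), ended 1.28 kb before the run at 115619. It met a single member, which scored 10.68 (61.1st percentile), and no replicate 1 peak. Its second, at 4025942 to 4029281 (score 2775.65, rank 23), lay just outside the 23-peak run. It coincided with a separate run of 4 members scoring up to 7.7, and met 3 replicate 1 peaks, the strongest of rank 325. Its next, at 1752184 to 1755155 (score 2305.56, rank 44), ended 5.63 kb before the run at 1760782, met 1 member with a score of 18.54 and had no replicate 1 peak. These 3 sites were chosen for their replicate 2 scores, and their nearness to the runs was noticed after the values were seen.

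**Figure D5:**
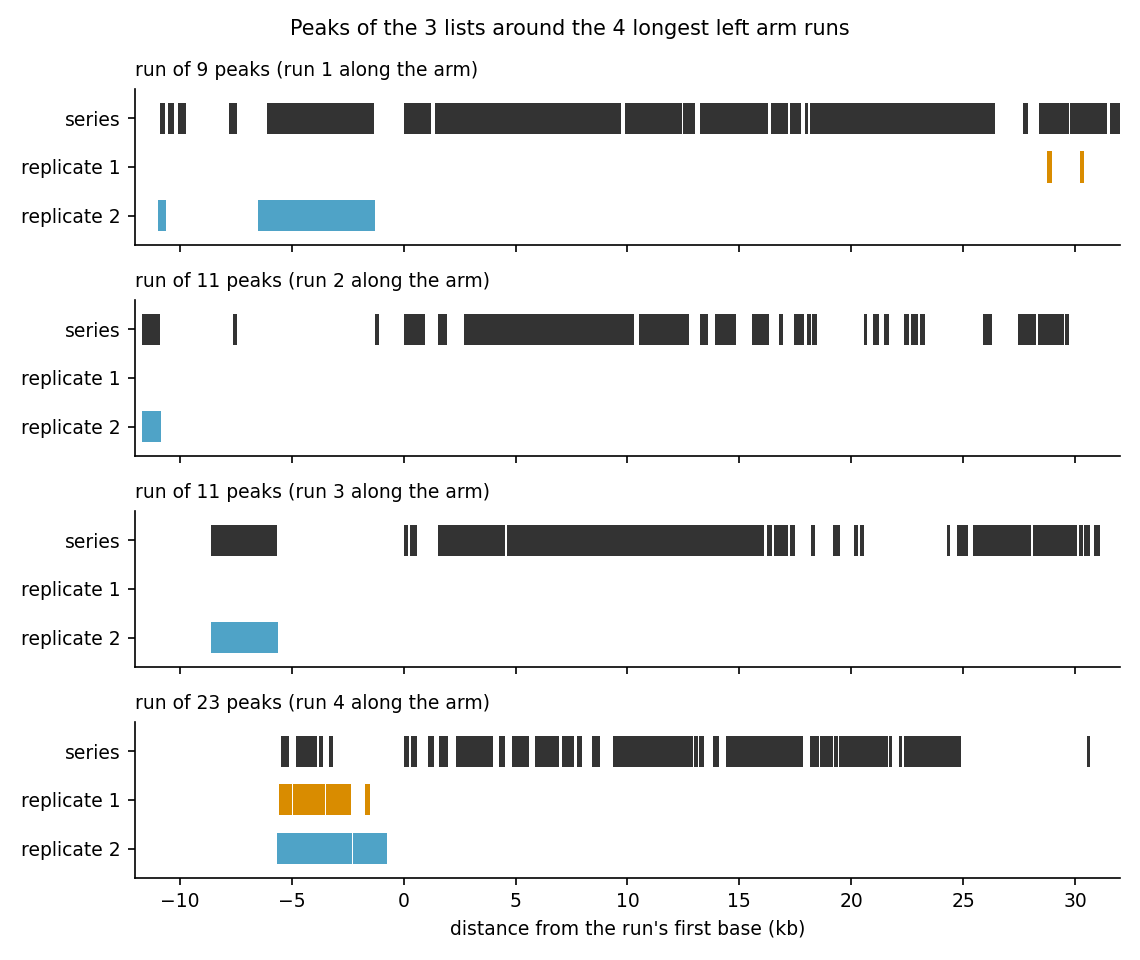
Peaks of the series list (black), replicate 1 (orange) and replicate 2 (blue) around the 4 longest runs of the left arm, against the distance in kb from each run's first base. Within the runs of 9, 11, 11 and 23 peaks only the series list has peaks, and replicate 2 peaks stand to the left of them at 1.28, 10.8, 5.63 and 0.758 kb. Replicate 1 peaks stand 1.52 kb to the left of the run of 23 and 2.35 kb to the right of the run of 9.

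The replicate lists themselves did not show the left arm's excess. Replicate 1 held 139 peaks on the left arm and 133 on the right, or 31.4 and 30.0 per Mb. Replicate 2 held 182 and 199, or 41.1 and 44.9 per Mb. Over 500 kb bins, replicate 1 averaged 31.4 ± 4.57 per Mb on the left and 30.1 ± 8.80 on the right, and replicate 2 averaged 41.1 ± 6.49 and 45.0 ± 11.9 (SD, n = 9 bins each), differences within the spread between bins. Runs were rare in them. They took in 7 of the 139 left arm peaks of replicate 1 and 6 of the 133 on the right, and in replicate 2, 3 of 182 on the left and 15 of 199 on the right. Peaks over 1500 bp numbered 1 on the left and 6 on the right in replicate 1, and 5 and 4 in replicate 2.

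Most replicate peaks of the left arm were in the series list, 99 of 139 in replicate 1 (71.2%, interval 63.2 to 78.1) and 150 of 182 in replicate 2 (82.4%, 76.2 to 87.3). The right arm had 70.7% and 83.9%, and the whole lists 65.2% and 83.0%, both within the left arm's intervals. Between replicates, 64.7% of replicate 1 peaks on the left arm met a replicate 2 peak, against 65.4% on the right and 62.5% over the whole list. In the other direction the shares were 47.3% on the left arm, 43.7% on the right and 34.9% over the whole list. Across the left arm members that met a replicate 2 peak, scores of the lists were related (Spearman's rho = 0.53, 157 members, which may rest on the same reads), and across the 97 that met a replicate 1 peak hardly at all (rho = 0.11). With replicate 2, rho was 0.59 in the 149 members up to 1000 bp wide and -0.01 in the 8 wider ones. The right arm was alike, with rho = 0.55 for replicate 2 and -0.09 for replicate 1.

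The strongest replicate 1 peak of the arm, at 3127439 to 3128180 (score 869.58, rank 91 of 2698), was found in replicate 2 at rank 329, and its member scored 28.1. The second, at 2536227 to 2536959 (786.53), was at replicate 2 rank 351, and its member scored 14.55. The third, at 1636063 to 1638618, was the arm's sole replicate 1 peak over 1500 bp. It had no replicate 2 peak and met 3 members, the best at the 30.2nd percentile. The fourth, at 949394 to 949981, was also the fourth of replicate 2 on the arm (scores 668.87 and 1643.44), and its member, at the 93.3rd percentile, was 567 bp wide. The fifth, at 593173 to 593914, stood at replicate 2 rank 588, while its member was at the 34.2nd percentile. The fifth replicate 2 peak of the arm, at 2852122 to 2853095 (score 1423.92), met a replicate 1 peak of rank 232 and a member of the 95.3rd percentile. The sites that start at 949394 and 2852070 in replicate 1 were thus high in all 3 lists, narrow, and outside the dense stretches.

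Some replicate peaks had no member. Replicate 1 had 40 such peaks on the arm, of which 14 met a replicate 2 peak, and replicate 2 had 32, of which 11 met a replicate 1 peak. The strongest was common to both, at 2043046 to 2043510 in replicate 1 (score 454.98, rank 235) and 2042798 to 2043609 in replicate 2 (score 242.99, rank 2157). At the tip, replicate 1 listed a peak from base 1 to 351 (rank 257) and replicate 2 one from 1 to 382 (rank 3345 of 4580). The other leading replicate 1 cases were at 2063124, 1642495 and 3631311, with scores of 275.48, 261.93 and 236.16, none with a replicate 2 peak. The other leading replicate 2 cases, at 1021701, 2495752, 2368278 and 2056901, scored 147.91 to 170.57, below the list's median of 221.9, and those at 2495752 and 2368278 met a replicate 1 peak. The longest stretch of the arm with no replicate 1 peak, 1643519 to 1856112 (213 kb), fell in the dense stretch at 1.5 to 2 Mb. It held 58 members, 273 per Mb, of which 47 stood in runs, and 5 replicate 2 peaks. The right arm had a longer stretch without a replicate 1 peak, of 283 kb. In replicate 2 the longest such stretch of the left arm was 601858 to 727523 (126 kb), and it held 5 members, 39.8 per Mb, below the arm's mean, and no replicate 1 peak. The right arm's longest in replicate 2 was 189.7 kb.

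Set beside the 10 autosomal arms, defined as the outer 25% on either side, the left arm of X was intermediate. Its 107 series peaks per Mb exceeded 4 of the 10, which ranged from 74.0 on the right arm of III to 254 on the right arm of I, with a median of 119.7. Its share without a replicate peak, 62.5%, also exceeded 4 of the 10 (median 70.3%, from 29.8% on the right of III to 85.0% on the right of V), as did its share in runs, 45.3% (median 51.8%). The share found in both replicates, 16.3%, exceeded 8 of them, with only the right arms of III (22.4%) and II (19.8%) above it. Its median score percentile exceeded that of a single autosomal arm, the left of V (37.5). The right arm of X lay below all 10 in density and in the share without a replicate peak.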

How the data were processed

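Per the file headers, coordinates are those of WormBase WS220, and the source columns name MACS for the replicate lists and MACS v2 for the series list; BWA and the build ce10 come from the submitters' processing notes. Peak-calling thresholds, the control and any pooling of libraries are not given in the sources used. The authors deposited a start, an end and 1 score per peak, with no scale named for the score, so scores were ranked within a list.

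Everything else was computed in Python 3.11.15 (scipy 1.17.1, pandas 2.3.3, numpy 2.4.6), with figures drawn by matplotlib 3.10.9. The length of X was taken as the largest coordinate in the lists, 17713396. Peaks overlapped when they shared at least 1 bp. Gaps are the bases between neighbouring peaks. Shares have Wilson intervals, differences of shares Newcombe intervals, density ratios exact conditional binomial intervals, and medians binomial order-statistic intervals. The overlap and run procedures were tested on simulated data. The lists hold no counts, so depth and the precision of a single peak are unknown.

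Regions named are the 10 highest-scoring and 10 widest members, the runs with the most peaks and the longest runs, the highest-scoring member of each overlap class, the longest stretch without a member, the arm's first and last members, and the leading replicate peaks with and without a member. Other sites were picked once values were known. The members, the comparisons and the alternatives were chosen with earlier results of these data known. Alternatives changed the overlap rule, the peaks or list counted, the gap, the bins and the boundary. Gene names and sequences were not used here, since the gene table given for the species follows another assembly, WBcel235.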

Additional observations from a re-analysis of the deposited data

How the results depend on the processing

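The density ratio of the left to the right arm, 1.71, was 1.62 without peaks over 1500 bp and 1.82 over the outermost 3 Mb. It was 1.27 in the upper 50% of scores, 1.29 after joining peaks under 1000 bp apart, 2.29 in covered bp and 1.05 in replicate 1, and it reversed to 0.915 in replicate 2. Chosen after seeing the data, it was 0.876 for peaks found in a replicate (reversed), 3.99 for those found in none and 1.23 outside runs. Also chosen so, it was 1.23 without the 2 densest bins of the left arm. The right arm kept all its bins there, so that ratio could only fall. The share of members in both replicates, 16.3%, was 7.42% when overlap had to reach 50% of both peaks, a stricter rule, 26.2% in the upper 50% of scores, and 20.6% to 33.3% with either replicate left out. Leaving out a replicate can only raise this share and the share in none, so the direction of those changes was fixed. The share in none, 62.5%, was 75.0% under the stricter rule, 68.4% with midpoints within 200 bp, 42.2% in the upper 50% of scores, 41.5% outside runs, and 66.7% to 79.4% with either replicate left out. Its difference from the right arm, 35.7 points, kept its sign throughout, at 22.8, 28.6, 28.0 and 21.0 points in those 4 settings and 16.0 (without replicate 2) to 32.7 (without replicate 1). Median width, 313 bp, was 461 bp in the upper 50% of scores, 443 bp and 561.5 bp in replicates 1 and 2, and 290.0 bp outside runs. The share in runs, 45.3%, was 34.5% and 55.7% with gaps under 500 and 2000 bp, where the right arm had 16.3% and 26.1%. It was 13.9% in the upper 50% of scores (7.48% on the right arm), and 5.04% and 1.65% in replicates 1 and 2. Fewer peaks are left in the upper 50% of scores, and the part of this in the lower share was not tested. The median score percentile, 38.7, was 64.5 for members found in both replicates. The densest bin, 214 peaks per Mb, became 268 in 250 kb bins and 155 in 1 Mb bins. The cause of the other changes was not tested. No paired analysis was made. The labels number the input libraries in the same way as the ChIP libraries, but the replicate lists used are all of ChIP libraries and input values were not analysed. Depth and the making of the series list are unknown, and their part in the number of members without a replicate peak was not tested.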
